A study of Mus musculus with 12 samples.

Results

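The 33 genes described here encode scaffold and signalling proteins of the postsynaptic density. They were chosen by name and no measured value entered the rule, but earlier results of these data were known at the time. Receptors and the Shank, Homer, Dlgap and adhesion genes were left out. The set is 33 of the 21492 genes measured. RNA was sequenced from striatal synaptosomes (input), which are pinched-off nerve terminals with attached postsynaptic membrane, and from the polyribosomes of synaptosomes (polysome). The 4 groups were Shank3 transgenic (TG) polysome, wild-type (WT) polysome, TG input and WT input, each with 3 libraries numbered 1 to 3. All mice were C57BL/6J males at postnatal day 70. The labels do not give the promoter, the copy number or the expressing cells of the transgene. Whether the libraries of a group are from different animals is not stated either, and the spread on which the p-values rest may therefore be partly technical.

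The postsynaptic density is the protein layer beneath the membrane of an excitatory synapse. MAGUK scaffolds such as Dlg4 hold glutamate receptors there through PDZ domains, and kinases such as CaMKII act on them when calcium enters. Small GTPases of the Ras, Rap, Rac and Arf families, set by exchange factors (which load GTP) and activating proteins (which trigger its hydrolysis), link receptor activity to spine actin and receptor traffic, and in the striatum most of these spines belong to medium spiny neurons.

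The deposited values are the authors' normalized estimated counts per gene, called normalized counts below. Estimated depth was 77.0 to 102.4 M reads in polysome libraries and 62.4 to 85.9 M in input libraries. Shank3 was 3.34, 3.41 and 2.10 times as high in TG as in WT polysome libraries of numbers 1, 2 and 3, and 2.57, 4.20 and 2.41 times as high in TG as in WT input, which fits the genotype labels. All 10 medium spiny neuron markers reached a value of 10 in every library, as the striatal label requires, and so did all 6 markers of cortical excitatory neurons.

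All 33 genes were abundant. They had 1008 to 38472 normalized counts in any library, and their mean levels lay at the 65.5th to 98.4th percentile of the genes tested (median 94.2). In each of them at most 3.37% of the 31-base stretches of the transcripts occurred in another gene, so near-identical copies bear little on their counts. Divided by the length of the principal transcript, levels spanned a wide range. Psd3, an exchange factor for Arf6, was highest with 12040 ± 1902 normalized counts per kb in TG polysome, 11717 ± 953 in WT polysome, 16123 ± 1819 in TG input and 15647 ± 1293 in WT input libraries (means with SD, n = 3 each). Its principal transcript has 1739 bases, against 17632 bases of exon in the whole gene, so its rank depends on which isoforms were present. Sipa1l3, a relative of the Rap-inactivating protein SPAR, was lowest with 186 ± 55.3, 189 ± 19.2, 207 ± 82.2 and 191 ± 5.62 normalized counts per kb in the same order of groups.

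Ranked per length in WT input, Psd3 was followed by Rapgef4 (7444 ± 420 normalized counts per kb), which encodes the cAMP-activated Rap exchange factor Epac2, and by Camk2b (6980 ± 609), the actin-binding beta subunit of CaMKII. Rapgef4 and Camk2b differed by less than their summed SDs. Among the MAGUK genes the order was Dlg4 (4853 ± 445), Dlg2 (2297 ± 353), Dlg1 (2030 ± 38.8) and Dlg3 (1297 ± 68.1 normalized counts per kb, SD, n = 3 each). Dlg2 and Dlg1 did not differ beyond their spread, and both lay clear of Dlg4 above and of Dlg3 below. This order holds for the length of the principal transcript. The exons of the whole gene have 13251 bases for Dlg4, 16280 for Dlg2, 10736 for Dlg1 and 5844 for Dlg3. The place of Dlg3 below Dlg2 and Dlg1 therefore depends on the length used.

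The comparison of polysome with input asked which transcripts were over- or under-represented on synaptosomal polyribosomes. In TG, 11 of the 33 genes fell and 0 rose, where 18.1% of all 16962 genes tested passed, 9.86% lower and 8.19% higher in polysome. In WT, 10 of 33 fell and 0 rose, where 14.0% passed, 8.59% lower and 5.36% higher (limma, Benjamini-Hochberg adjusted p under 0.05). The 10 that fell in both genotypes were Baiap2, Tnik, Cttnbp2, Rapgef2, Rapgef4, Trio, Cnksr2, Kalrn, Sipa1l2 and Dlg3, and Dlg1 fell in TG. The median log2 difference, polysome minus input, was -0.49 over the 33 genes in TG, against 0.030 over all genes tested, and -0.46 in WT, against 0.026 over all genes tested. Of the 33 genes, 27 lay below 0 in TG and 26 in WT, while 51.8% of all genes tested lay above 0 in each genotype.

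Because libraries with the same number resembled each other, the fit was repeated with the number as a replicate block. It called 19 genes lower and 0 higher in TG, where 33.2% of all genes passed, 16.6% lower and 16.7% higher, and 18 lower and 0 higher in WT, where 29.8% passed, 15.9% lower and 13.9% higher. Counted without a model, the polysome values of 15 of 33 genes lay wholly below the input values in TG (18.0% of all genes), and those of 15 of 33 in WT (18.5%). The count without the block rested in part on number 3. It was 5 in TG without polysome library 3, where 4.35% of all genes fell, and 6 without input library 2, input library 3 or polysome library 1 of TG, where 5.45%, 4.91% and 4.91% fell. In WT it was 2 without input library 3, where 3.09% of all genes fell, and 3 without polysome library 3, where 3.46% fell. With the block and without all libraries of number 2, the count was 8 in TG and 2 in WT, where 5.40% and 1.86% of all genes fell. Without number 1 it was 11 in TG, where 10.7% fell.

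Nuclear noncoding RNA also differed between the fractions. The 4 transcripts Malat1, Meg3, Neat1 and Snhg11, all at 10 or more in every library, summed to 2471 to 4586 normalized counts in TG polysome and 3276 to 5260 in WT polysome, against 5567 to 17496 in TG input and 6885 to 14746 in WT input. Summed markers of medium spiny neurons (10 of 10 at 10 or more in every library) ran from 248271 to 462752 in TG polysome and 190161 to 437602 in WT polysome, against 190554 to 364532 in TG input and 161423 to 337685 in WT input, with overlap. Summed astrocyte markers (6 of 6 at 10 or more in every library) ran from 226243 to 354081 in TG polysome and 209987 to 332684 in WT polysome, against 337393 to 397506 in TG input and 356294 to 371486 in WT input, with no overlap in WT. Mitochondrial ribosomal RNA took 23.1% to 34.0% of the summed values in polysome libraries, against 39.1% to 46.8% in input libraries. The part of any of these in the falls was not tested. In bulk RNA such as this, fewer particles of a type and less RNA per particle cannot be told apart.

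**Figure D1:**
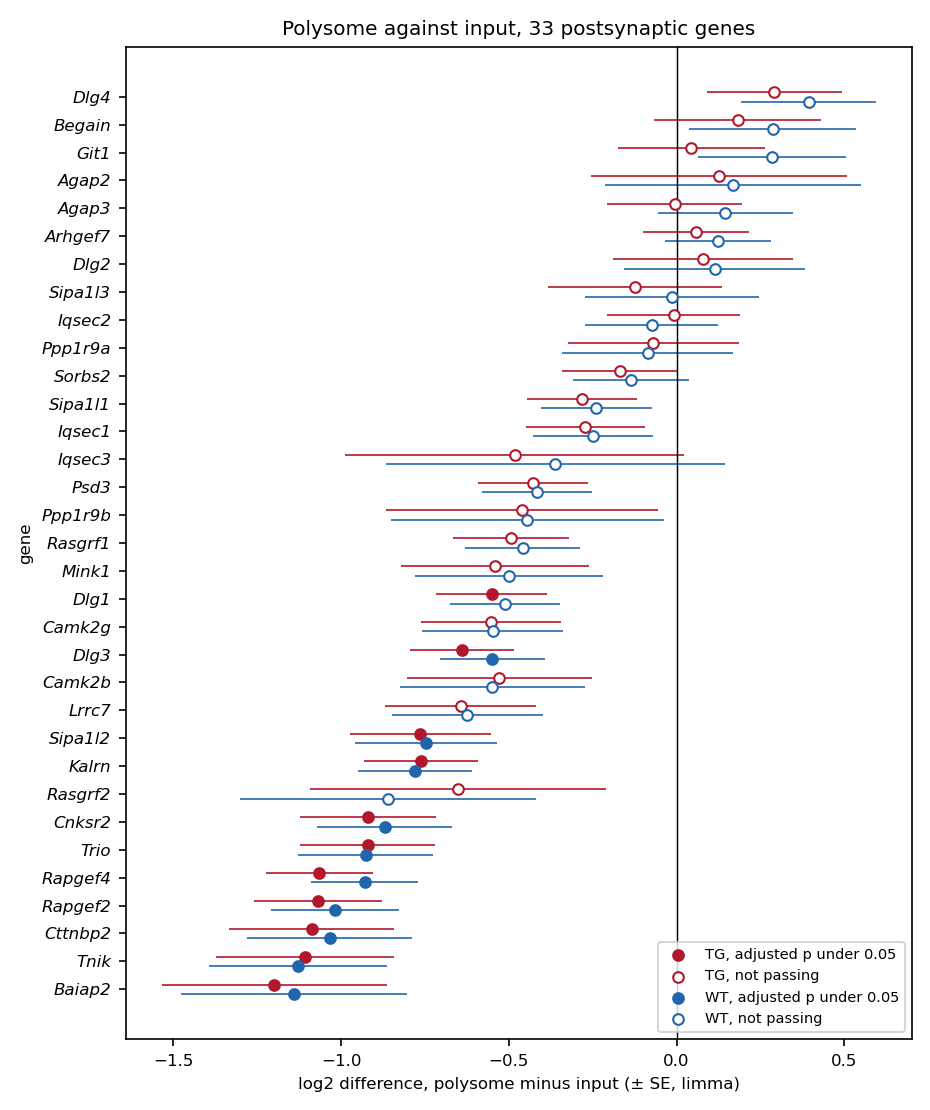
Log2 difference of polysome minus input for the 33 genes (x axis, with the standard error of the limma fit), ordered by the WT value down the y axis, with TG above WT in each row and filled points for an adjusted p under 0.05. The filled points are the 11 genes that fell in TG and the 10 that fell in WT, all left of 0, and Dlg4 lies farthest right at 0.29 in TG and 0.39 in WT.

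Within the MAGUK family the members parted. In TG, Dlg3 (encoding SAP102, chrX:100767722-100818410 of GRCm38) had 4323, 4958 and 3507 normalized counts in polysome libraries 1, 2 and 3, against 6336, 6663 and 6738 in input. In WT, it had 4931, 4232 and 3880 in polysome, against 6706, 6062 and 6241 in input. Every polysome value was below every input value, and the log2 difference was -0.64 ± 0.16 (SE, adjusted p = 0.0164, limma) in TG and -0.55 ± 0.16 (adjusted p = 0.0356) in WT. The call was lost in TG without input library 2 or 3 or polysome library 1 or 3 of TG (highest adjusted p = 0.0683), and in WT without any WT input library, polysome library 2 or 3 of WT, or polysome library 1 of TG (highest adjusted p = 0.121, limma).

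Dlg1 (encoding SAP97, chr16:31663443-31875129) behaved much like Dlg3, with 7289, 7360 and 5372 normalized counts in TG polysome, against 10293, 10041 and 8774 in TG input. WT libraries had 7766, 6420 and 5869 in polysome, against 9658, 9300 and 9439 in input. The groups did not overlap in either genotype. Its log2 difference passed in TG (-0.55 ± 0.16, adjusted p = 0.0366) and missed the threshold in WT (-0.51 ± 0.16, adjusted p = 0.0558), and both passed with the replicate block (adjusted p = 0.00961 in TG and 0.0154 in WT, limma). Without the block the call in TG was lost without any TG input library, polysome library 1 or 3 of TG, or input library 1 of WT (highest adjusted p = 0.143).

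Dlg4, which encodes PSD-95, the most abundant scaffold of the density (chr11:70016942-70047522), lay on the other side. It had 19656, 22944 and 23135 normalized counts in TG polysome, against 15273, 22860 and 16310 in TG input, and 17167, 24138 and 26301 in WT polysome, against 15190, 18179 and 17409 in WT input. The polysome library was the higher one in all 3 numbers of both genotypes, but the groups overlapped and the test was not passed (log2 difference 0.29 ± 0.20, adjusted p = 0.345 in TG, and 0.39 ± 0.20, adjusted p = 0.210 in WT, limma). Dlg2, which encodes PSD-93 (chr7:90476672-92449247), had 19967, 28732 and 15273 normalized counts in TG polysome, against 16641, 25888 and 17298 in TG input. In WT polysome it had 18545, 24314 and 13963, against 14958, 20116 and 16533 in WT input. It was higher in polysome in numbers 1 and 2 and lower in number 3, in both genotypes (0.078 ± 0.27 in TG and 0.11 ± 0.27 in WT, neither passing).

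**Figure D2:**
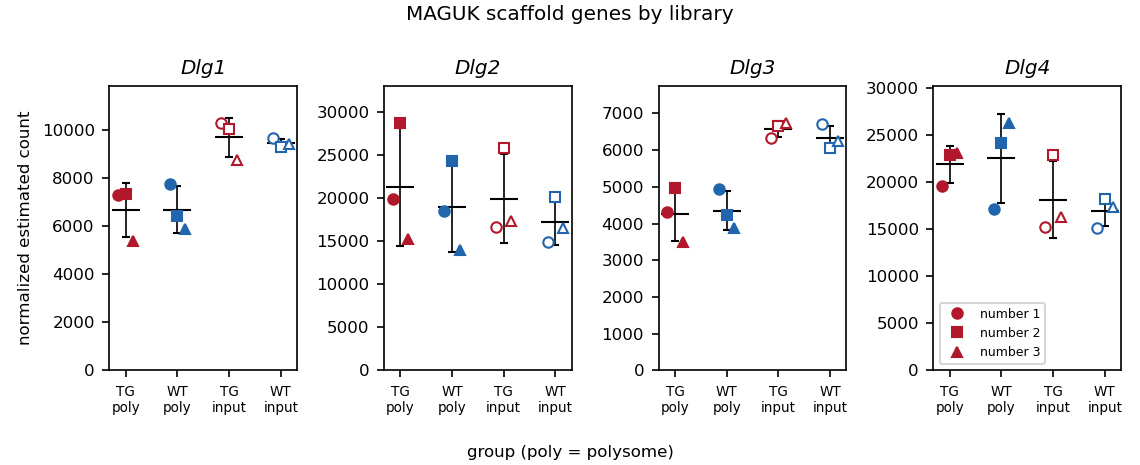
Normalized estimated counts of the 4 MAGUK scaffold genes in each library (y axis, from 0), by group on the x axis, with filled symbols for polysome, open symbols for input, and bars for the mean ± SD (n = 3). Dlg1 and Dlg3 lie lower in polysome than in input with no overlap within a genotype, while Dlg2 and Dlg4 overlap.

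The 4 genes are close relatives, and reads of a shared stretch could in principle be assigned to the wrong one. The stretch of 90 coding bases below, chosen where the coding sequences aligned without gaps and resembled each other most, shows how far apart they are at the nucleotide level. Capitals mark the bases that differ from Dlg4, and the sequences, joined across exons, are from GENCODE M21 on GRCm38 (chr11:70031244-70031429, chr16:31791870-31793578, chr7:91900890-91940073 and chrX:100772522-100772897, all on the plus strand).
Dlg4: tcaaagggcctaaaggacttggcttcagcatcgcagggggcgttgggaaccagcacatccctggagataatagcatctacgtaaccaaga
Dlg1: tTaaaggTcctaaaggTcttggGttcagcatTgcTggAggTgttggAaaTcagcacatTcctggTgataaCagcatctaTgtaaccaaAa
Dlg2: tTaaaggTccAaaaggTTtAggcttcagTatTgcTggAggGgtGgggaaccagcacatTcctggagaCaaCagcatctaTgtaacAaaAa
Dlg3: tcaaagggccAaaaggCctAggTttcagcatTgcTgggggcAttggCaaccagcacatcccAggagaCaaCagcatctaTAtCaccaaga
Even here Dlg1 differed from Dlg4 at 15 bases, Dlg2 at 18 and Dlg3 at 14, and the longest run in common with Dlg4 was 8, 14 and 14 bases. Over whole transcripts, Dlg1 and Dlg2 each had 1 stretch of 31 bases that occurs in another gene of the family, and Dlg3 and Dlg4 had 0.

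The ratio of paralogs within a library does not depend on how libraries were scaled. It can still move with transcript length, and no length correction was applied to the ratios. Over the 19 pairs of paralogs among the 33 genes (10 families), the log2 ratio was compared between polysome and input by an exact two-sided permutation test of the fraction labels within each genotype, with 400 arrangements and a smallest possible p of 0.005. In 5 pairs p was 0.005, which is 0.019 after adjustment over the 19 pairs, and ratios did not overlap in either genotype. Apart from Mink1 to Tnik, these were ratios among the Dlg genes, which share members and are not independent results. When polysome and input were swapped only within a pair of libraries of the same number and genotype, which gives 64 arrangements and a smallest possible p of 0.03125, those 5 pairs and 4 others reached that p, and none of the 19 passed after adjustment (smallest adjusted p = 0.0660). No lower p was possible, so 5 pairs alone could not have passed over the 19, and this outcome decides nothing about them. The Dlg3 to Dlg4 ratio was 0.220, 0.216 and 0.152 in TG polysome, against 0.415, 0.291 and 0.413 in TG input, and 0.287, 0.175 and 0.148 in WT polysome, against 0.442, 0.333 and 0.359 in WT input. Its mean log2 difference was -0.94. The ratio changed by -0.87 for Dlg1 to Dlg4, by -0.63 for Dlg1 to Dlg2 and by 0.69 for Dlg2 to Dlg3. No difference was detected for Dlg1 to Dlg3 (0.063, exact permutation p = 0.285) or Dlg2 to Dlg4 (-0.25, exact permutation p = 0.37).

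The kinases gave the fifth such pair. Tnik and Mink1 encode related Ste20-type kinases that bind Rap2. Tnik (chr3:28263214-28675858) had 6011, 9467 and 4908 normalized counts in TG polysome, against 10208, 17457 and 15716 in TG input, and 6748, 7584 and 4996 in WT polysome, against 12255, 13693 and 15928 in WT input. It fell without overlap by 1.11 on the log2 scale in TG (SE 0.27, adjusted p = 0.0152) and by 1.13 in WT (SE 0.27, adjusted p = 0.0177, limma). In TG the call was lost without input library 2 or 3 or polysome library 1 or 3 of TG (highest adjusted p = 0.0688). Mink1 (chr11:70562881-70614483) had 12067, 18106 and 10102 in TG polysome, against 14727, 24147 and 19156 in TG input. In WT polysome it had 10656, 17956 and 9501, against 14419, 19463 and 18307 in WT input. The groups of Mink1 overlapped and it did not pass (-0.54 ± 0.28 in TG and -0.50 ± 0.28 in WT), and the Mink1 to Tnik ratio was higher in polysome by a mean of 0.60 on the log2 scale (exact permutation p = 0.005, adjusted p = 0.019 over the 19 pairs, and 0.0660 with swaps within pairs). Camk2b and Camk2g, subunits of CaMKII, differed by -0.53 ± 0.28 and -0.55 ± 0.21 in TG and by -0.55 ± 0.28 and -0.55 ± 0.21 in WT. Neither passed without the block. With the block Camk2g passed in TG and in WT (adjusted p = 0.0354 and 0.0399), Camk2b in WT alone (0.0482, and 0.0509 in TG), and Mink1 in TG alone (0.0426, and 0.0609 in WT, limma). The interaction did not pass for any of the 3.

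Among the 8 other scaffolds and adaptors, 3 fell in TG and the same 3 in WT. Baiap2 (IRSp53, an adaptor between Rac and membrane-bending actin, chr11:119942763-120006782) had 6540, 8616 and 3618 normalized counts in TG polysome, against 12228, 17103 and 11794 in TG input, and 6929, 8765 and 3671 in WT polysome, against 13785, 14668 and 11801 in WT input. The polysome value of number 3 was the lowest in both genotypes. The log2 difference was -1.20 ± 0.34 (adjusted p = 0.0291) in TG and -1.14 ± 0.34 (adjusted p = 0.0412) in WT. It passed with 8 of 12 libraries left out singly in TG, and was lost without input library 2 or 3 or polysome library 1 or 3 of TG (highest adjusted p = 0.119). In WT it passed with 6 of 12 and was lost without any WT input library, polysome library 1 or 3 of WT, or polysome library 1 of TG (highest adjusted p = 0.156, limma).

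Cttnbp2, a cortactin-binding protein of dendritic spines (chr6:18366478-18514843), had 2078, 3044 and 1497 normalized counts in TG polysome, against 3753, 5635 and 4303 in TG input, and 1941, 2508 and 2010 in WT polysome, against 3641, 4993 and 4626 in WT input. It fell without overlap, by 1.09 on the log2 scale in TG (SE 0.25, adjusted p = 0.0123) and by 1.03 in WT (SE 0.25, adjusted p = 0.0185, limma). The call was lost without input library 2 or polysome library 3 of TG in TG, and without input library 2 or 3 or polysome library 1 or 3 of WT in WT (highest adjusted p = 0.0517 and 0.0747). Cnksr2, a scaffold of the Ras cascade that binds PSD-95 (chrX:157821436-158043294), had 12685, 15653 and 10775 in TG polysome, against 19254, 26054 and 28843 in TG input. In WT polysome it had 15158, 13048 and 11161, against 21985, 22467 and 27306 in WT input, and its log2 difference was -0.92 ± 0.20 in TG and -0.87 ± 0.20 in WT. Lrrc7 (densin, which binds CaMKII) differed by -0.64 ± 0.22 in TG and -0.62 ± 0.22 in WT and passed with the block (adjusted p = 0.00513 in TG and 0.00719 in WT). Begain, which binds the guanylate kinase domain of PSD-95, was at 0.18 ± 0.25 in TG and 0.29 ± 0.25 in WT, and Sorbs2, an SH3 adaptor, at -0.17 ± 0.17 and -0.14 ± 0.17. The actin-bound phosphatase targeting proteins neurabin (Ppp1r9a, -0.070 ± 0.25 in TG and -0.086 ± 0.25 in WT) and spinophilin (Ppp1r9b, -0.46 ± 0.41 in TG and -0.44 ± 0.41 in WT) did not pass. With the block spinophilin passed just inside the threshold of 0.05 in TG and missed it in WT (adjusted p = 0.0606, limma).

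None of the 7 Arf regulators passed in either genotype, where 18.1% of all genes did in TG and 14.0% in WT. Their medians were -0.0085 in TG and -0.074 in WT. Among the activating proteins, Git1 (a partner of the exchange factor Arhgef7) was at 0.044 ± 0.22 in TG and 0.28 ± 0.22 in WT, Agap2 at 0.13 ± 0.38 and 0.17 ± 0.38, and Agap3 at -0.0053 ± 0.20 and 0.15 ± 0.20. Among the exchange factors for Arf6, Psd3 was at -0.43 ± 0.16 in TG and -0.42 ± 0.16 in WT, Iqsec3 (found at inhibitory synapses) at -0.48 ± 0.51 and -0.36 ± 0.51, Iqsec1 at -0.27 ± 0.18 and -0.25 ± 0.18, and Iqsec2 at -0.0085 ± 0.20 and -0.074 ± 0.20. Psd3 had 20504, 24442 and 17870 normalized counts in TG polysome, against 26744, 31644 and 25726 in TG input, and 21913, 20596 and 18621 in WT polysome, against 25568, 29772 and 26289 in WT input, with no overlap. With the block, 2 of the 7 fell in both genotypes, Psd3 (adjusted p = 0.0236 in TG and 0.0290 in WT) and Iqsec3 (0.0143 in TG and 0.0469 in WT, limma).

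Of the 3 Rac exchange factors, the large multidomain relatives Trio and Kalrn fell. Trio (chr15:27730651-28025848) had 5153, 5895 and 7115 normalized counts in TG polysome, against 10324, 9959 and 14281 in TG input, and 5957, 5605 and 6478 in WT polysome, against 10494, 9626 and 14711 in WT input. Kalrn (chr16:33969073-34573532) had 13530, 14278 and 12413 in TG polysome, against 20750, 22070 and 25560 in TG input, and 15713, 12909 and 12424 in WT polysome, against 26056, 19165 and 25604 in WT input. No polysome library of either gene reached an input library of its genotype. The log2 differences of Trio were -0.92 ± 0.20 in TG and -0.93 ± 0.20 in WT (adjusted p = 0.0108 and 0.0129), and those of Kalrn -0.76 ± 0.17 and -0.78 ± 0.17 (adjusted p = 0.0116 and 0.0130, limma). Arhgef7 (beta-PIX, an exchange factor for Rac and Cdc42) had 3529, 2995 and 3168 in TG polysome, against 3622, 2995 and 2744 in TG input, which overlapped, and differed by 0.057 ± 0.16 in TG and 0.12 ± 0.16 in WT.

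All 7 Rap and Ras regulators lay below 0 in both genotypes, and 3 fell in each. Rapgef4 (Epac2, chr2:71981240-72257474) had 10917, 10489 and 12857 normalized counts in TG polysome, against 22944, 23730 and 24764 in TG input, and 13021, 9528 and 12704 in WT polysome, against 21178, 21816 and 23597 in WT input. Its fall had the smallest p-value of the 33 genes in each genotype, at -1.06 ± 0.16 in TG (adjusted p = 0.00220) and -0.93 ± 0.16 in WT (adjusted p = 0.00473, limma). Rapgef2, a Rap exchange factor with a PDZ domain (chr3:79062516-79286517), had 7230, 9853 and 5997 in TG polysome, against 14507, 17006 and 15972 in TG input, and 8275, 8613 and 6259 in WT polysome, against 14733, 15564 and 16152 in WT input. The log2 difference was -1.07 ± 0.19 in TG and -1.02 ± 0.19 in WT (adjusted p = 0.00491 and 0.00735). These 2 genes passed in both genotypes with each of the 12 libraries left out singly. In TG, Cnksr2, Kalrn and Trio did so too. In WT, Trio was lost without input library 3, and Cnksr2, Kalrn and Tnik without input library 3 or polysome library 3.

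Sipa1l2, a Rap-inactivating protein of the SPAR family, had 1504, 1317 and 1363 normalized counts in TG polysome, against 2641, 1865 and 2686 in TG input, and 1485, 1244 and 1459 in WT polysome, against 2414, 1722 and 3070 in WT input. It fell without overlap (-0.76 ± 0.21, adjusted p = 0.0276 in TG, and -0.75 ± 0.21, adjusted p = 0.0354 in WT, limma). The call was lost in 5 of the 12 fits that left out a library in TG and in 6 of 12 in WT, each time without a library of that genotype except without polysome library 1 of TG in WT (highest adjusted p = 0.0988 in TG and 0.152 in WT). Its relatives Sipa1l1 (SPAR itself, -0.28 ± 0.17 in TG and -0.24 ± 0.17 in WT) and Sipa1l3 (-0.12 ± 0.26 and -0.014 ± 0.26) did not pass. The Sipa1l1 to Sipa1l2 ratio was higher in polysome by a mean of 0.49 on the log2 scale, with an exact permutation p of 0.035 that did not pass over the 19 pairs (adjusted p = 0.111). Rasgrf1 and Rasgrf2, which load Ras in response to calcium and calmodulin, were at -0.49 ± 0.17 and -0.65 ± 0.44 in TG and at -0.46 ± 0.17 and -0.86 ± 0.44 in WT. Neither passed without the block, and both fell with it (adjusted p = 0.0205 and 0.0138 in TG, 0.0302 and 0.00672 in WT, limma).

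Transcript length moved with these differences. Over all genes tested, split into quartiles of principal transcript length, the median log2 difference of polysome minus input was 0.34, 0.11, -0.039 and -0.28 from shortest to longest in TG and 0.32, 0.083, -0.039 and -0.27 in WT. The 33 genes are long, with a median principal transcript of 4885 bases against 2902 over all genes tested, and 22 of them were in the longest quartile. When the trend on principal transcript length was removed, 8 of 33 fell and 0 rose in TG, where 7.13% of all genes fell, and 7 fell and 0 rose in WT, where 6.28% fell. The median of the 33 genes was then -0.32 in TG and -0.31 in WT. With the length of all exons of the gene in its place, 6 fell and 1 rose in TG, where 7.24% of all genes fell and 6.70% rose, and 4 fell and 1 rose in WT, where 6.02% fell and 4.29% rose. The median was then -0.14 in TG and -0.16 in WT.

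Rapgef2, Rapgef4, Cttnbp2 and Cnksr2 fell in both genotypes under each of the 2 length measures. Baiap2 and Tnik fell in both with principal transcript length. With the length of all exons Baiap2 passed in TG (adjusted p = 0.0350) and missed the threshold in WT (0.0526), and Tnik passed in neither (limma). Without the block, Kalrn (-0.32 in TG and -0.36 in WT, principal length) and Trio (-0.37 and -0.41), whose principal transcripts have 8940 and 11495 bases, no longer passed under either measure, nor did Sipa1l2. With the block added, a setting chosen after seeing the data, Sipa1l2 fell in both genotypes under both measures (highest adjusted p = 0.0308, limma). Trio then fell in both with principal length (adjusted p = 0.0280 in TG and 0.0223 in WT), and Kalrn in WT (0.0402, and 0.0555 in TG). Neither passed with all exons (limma). Dlg3 passed in TG under both measures without the block (-0.45 with principal length and -0.55 with all exons) and in WT under neither (-0.36 and -0.45), and Dlg1 under neither. With the block Dlg3 fell in both genotypes under both measures (highest adjusted p = 0.0373, limma). Dlg1 fell in both with principal length alone (adjusted p = 0.0224 in TG and 0.0381 in WT, limma). Without the block, the single gene that rose was Dlg4, at 0.72 in TG and 0.81 in WT with the length of all exons, which is 13251 bases for this gene. With its principal transcript of 3488 bases it was at 0.35 in TG and 0.46 in WT and did not pass, so that call depends on the length used. With the block and principal length, Dlg4 passed as higher in WT (adjusted p = 0.0411) and not in TG (0.0909, limma). Dlg2 passed as higher in both genotypes with the block, under principal length (adjusted p = 0.0198 in each) and under all exons (0.00639 in TG and 0.00743 in WT, limma). Psd3, with the short principal transcript, fell in TG and WT (-0.64 and -0.60) under that measure and lay at 0.11 and 0.099, not passing, under the other.

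**Figure D3:**
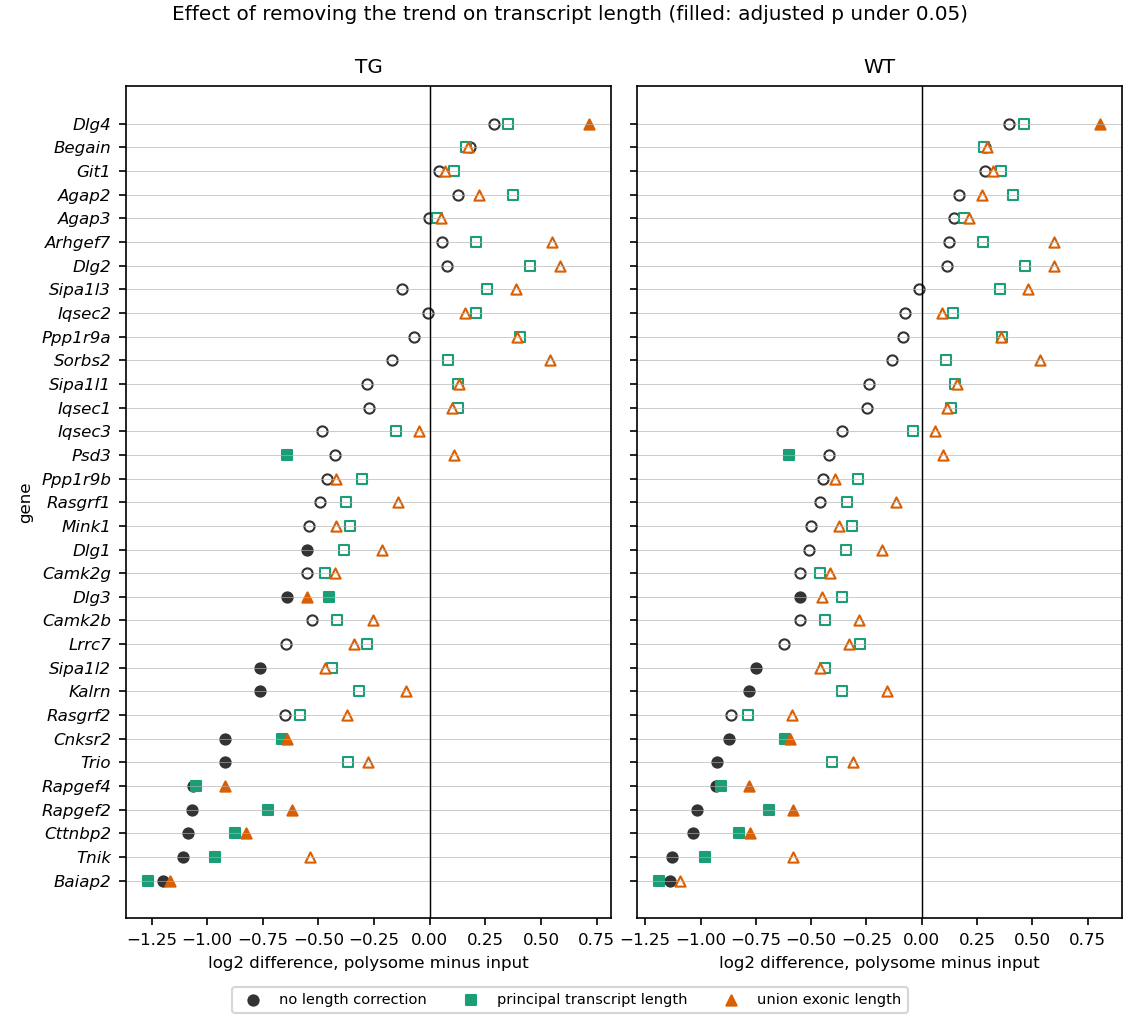
Log2 difference of polysome minus input (x axis) for the 33 genes (y axis) in TG (left) and WT (right), without a length correction (circles) and after removal of the trend on principal transcript length (squares) or on the length of all exons (triangles), filled where the adjusted p was under 0.05. Cnksr2, Rapgef4, Rapgef2 and Cttnbp2 stay filled and left of 0 for every marker in both genotypes, and Dlg4 is filled right of 0 for the triangles.

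The scaling of the libraries moved all genes together. When each library was scaled to its sum over nuclear protein-coding genes, the median of all genes moved up by 0.11 in TG and 0.12 in WT, that of the 33 genes moved up as well, to -0.39 and -0.34, and 9 of them fell in TG and 8 in WT, with 0 higher in each, where 7.92% and 6.59% of all genes fell. The share of higher genes among all calls was then 57.1% in TG and 54.3% in WT, against 45.4% and 38.4% with the deposited scaling.

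The comparison of TG with WT asked which transcripts differ with the Shank3 transgene. None of the 33 genes passed in polysome (0% of 16312 genes tested passed) or in input (0% of 16341). With the replicate block, 0 of the 33 passed in polysome, where 0.00613% of all genes did (Shank3 alone), and 0 in input, where 0% did. At an unadjusted p under 0.05 without the block, 0 of the 33 passed in polysome, where 53 of all genes did, and 0 in input, where 80 did (limma). With the block, Rasgrf2 had an unadjusted p under 0.05 in polysome, and Rasgrf2, Agap2 and Git1 had one in input (limma). The 53 and 80 above are from the fit without the block and cannot be set beside these. No share of all genes is given for the block, so these p-values do not show that the 33 genes stand out. The median log2 difference, TG minus WT, was -0.00034 in polysome, against 0.010 over all genes, and 0.038 in input, against -0.0086. In no member did the 3 TG libraries lie wholly above or below the 3 WT libraries, in polysome (2.37% of all genes) or in input (2.62%). Standard errors without the block ran from 0.14 to 0.46 in polysome and from 0.13 to 0.45 in input, so small differences were not detectable here. With the block they ran from 0.092 to 0.19 in input. Large differences could be missed too. Shank3, 2.10 to 3.41 times as high in TG polysome and 2.41 to 4.20 times in TG input, was not called without the block. In input it was not called with the block either.

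Rasgrf2 (chr13:91880400-92131656) was among the 3 genes with the smallest p in both fractions. It had 2572, 1332 and 2677 normalized counts in TG polysome, against 3537, 1541 and 2959 in WT polysome, and 4075, 1731 and 5041 in TG input, against 4876, 3001 and 6600 in WT input. The TG library was lower than the WT library of the same number in all 3 numbers and in both fractions, while the spread between numbers was larger than the difference between genotypes. The log2 difference was -0.27 ± 0.37 in polysome and -0.48 ± 0.43 in input (adjusted p = 1.00 in each), and with the block the unadjusted p was 0.0373 and 0.00356 and the adjusted p again 1.00 (limma).

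Agap2 (PIKE, an Arf GTPase-activating protein that binds phosphoinositide kinase, chr10:127075284-127093169) had 19942, 33875 and 33224 normalized counts in TG polysome, against 12560, 27717 and 33516 in WT polysome, and 17836, 34341 and 28151 in TG input, against 13909, 21389 and 27631 in WT input. Its differences of 0.31 ± 0.38 in polysome and 0.36 ± 0.31 in input did not pass, and the TG library was higher in 2 of 3 numbers in polysome and in 3 of 3 in input. With the block its unadjusted p was 0.0610 in polysome and 0.0243 in input, and neither passed after adjustment (limma). Git1 (chr11:77493562-77507786) had 7667, 8702 and 8705 normalized counts in TG input, against 5480, 5648 and 9105 in WT input (0.35 ± 0.21, adjusted p = 1.00), and 7400, 9121 and 9430 in TG polysome, against 6447, 7753 and 10192 in WT polysome (0.11 ± 0.21, adjusted p = 1.00, limma). Numbers 1 and 2 were higher in TG and number 3 was lower, in both fractions. With the block the unadjusted p of Git1 in input was 0.0316 (limma), and it did not pass after adjustment. Agap3 (chr5:24452177-24502047) had 3067, 3189 and 3803 in TG polysome, against 3264, 3820 and 3935 in WT polysome, lower in all 3 numbers but overlapping (-0.13 ± 0.16, adjusted p = 1.00).

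In polysome, 2 of the 33 genes were higher in TG in all 3 numbers (Dlg2 and Mink1) and 4 were lower (Agap3, Arhgef7, Baiap2 and Rasgrf2), where 19.5% of all genes had 1 direction in all 3, 11.1% higher and 8.34% lower. In input, 5 were higher (Agap2, Dlg2, Iqsec3, Mink1 and Rapgef4) and 1 was lower (Rasgrf2), where 19.7% of all genes had 1 direction, 9.52% higher and 10.2% lower. Over both directions the shares are near those of all genes. In number 2 the median difference of the 33 genes was 0.16 in polysome and 0.20 in input, against -0.083 and 0.0079 in number 1 and -0.049 and -0.031 in number 3.

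**Figure D4:**
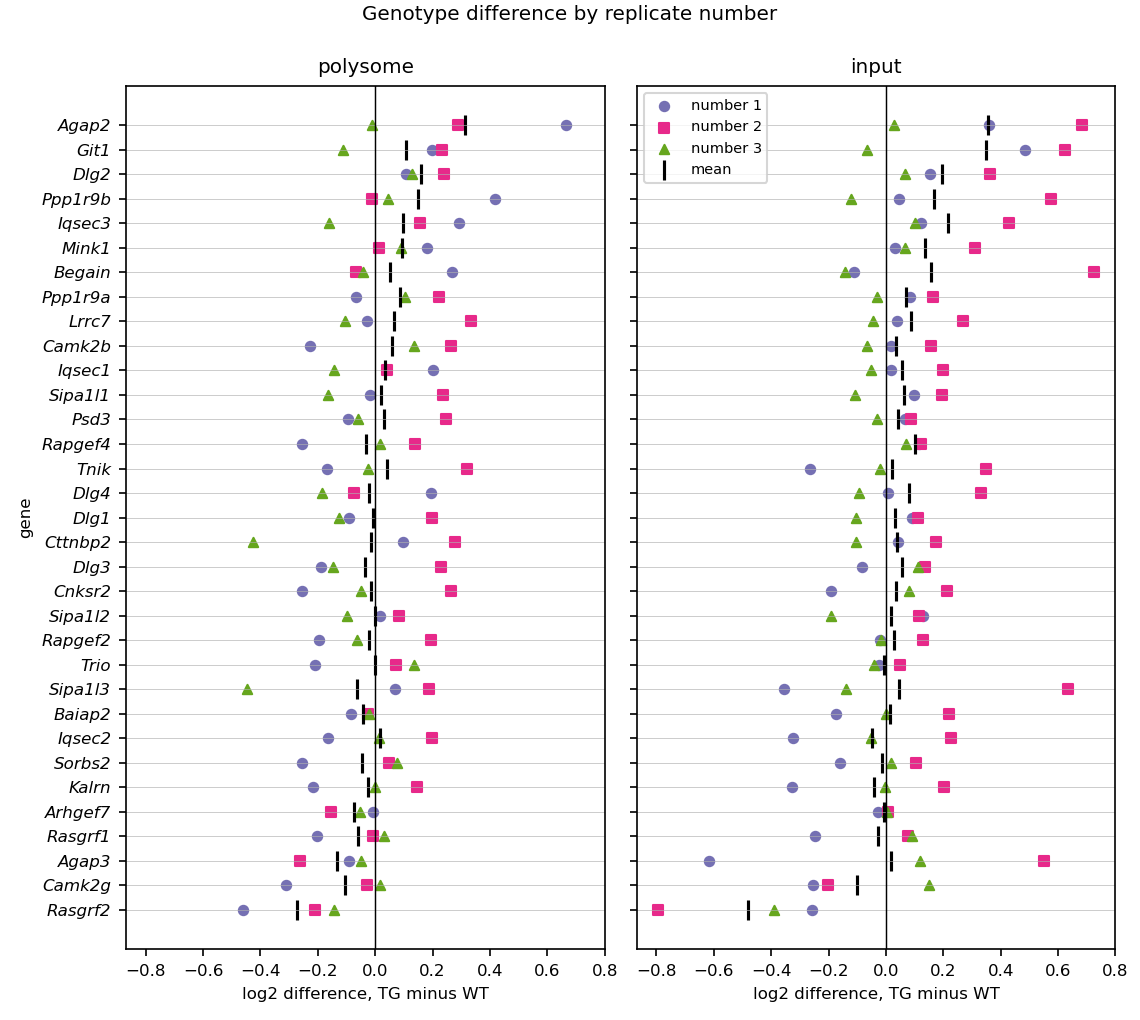
Log2 difference of TG minus WT (x axis) for the 33 genes (y axis) in polysome (left) and input (right), with a symbol for each replicate number and a bar for the mean. For most genes the numbers lie on both sides of 0, and Rasgrf2, at the bottom, lies left of 0 for every number in both fractions.

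The interaction asked whether the polysome-to-input difference itself differed between genotypes. None of the 33 genes passed (0% of 16962 genes, limma), and 0 of them had an unadjusted p under 0.05, where 94 of all genes did. The median was -0.040 over the 33 genes, with 26 of 33 below 0, and 0.016 over all genes. Of all genes tested 54.1% lay above 0, and 48.7% of those in the longest quartile of principal transcripts, which holds 22 of the 33. The smallest p-values belonged to Git1 (-0.24 ± 0.31), Rapgef4 (-0.13 ± 0.22) and Agap3 (-0.15 ± 0.28), each with an adjusted p of 1.00. Git1 was below 0 in all 3 numbers, at -0.29, -0.39 and -0.047. For Agap3 the numbers ran from -0.81 to 0.53.

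The replicate number separated several of the 33 genes more than genotype did. Iqsec3 had 5121 normalized counts in TG polysome library 3, against 2203 and 2576 in libraries 1 and 2, and 7447 in TG input library 3, against 2940 and 3626. WT had the same shape, with 5728 in polysome library 3 against 1797 and 2310, and 6934 in input library 3 against 2703 and 2693. Averaged over the 4 groups, the highest and lowest number differed by 1.40 on the log2 scale for Iqsec3, by 1.16 for Rasgrf2 (number 2 low in all 4 groups), by 1.12 for Ppp1r9b (number 1 low and number 3 high), by 0.95 for Agap2 (number 1 low) and by 0.84 for Baiap2 (number 3 low). At the other end, Kalrn and Cnksr2 differed by 0.14 each. The median over the 33 genes was 0.40, the same as over all genes tested and above the 0.34 of the 5853 genes that were at least as abundant as the lowest of the 33.

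Markers of cell types moved with the numbers too. Relative to the group means, summed medium spiny neuron markers stood at -0.29, 0.66 and -0.37 on the log2 scale in numbers 1, 2 and 3, and summed cortical excitatory markers at 0.26, -0.79 and 0.53. Rasgrf2 stood at 0.29, -0.73 and 0.43, and Baiap2 at 0.061, 0.39 and -0.45. Summed cortical markers, 6 of 6 of which reached 10 in every library, ran from 40516 to 129177 normalized counts in TG polysome, 49872 to 106333 in WT polysome, 28477 to 80075 in TG input and 32900 to 80282 in WT input. Choroid and ependymal markers, 4 of 5 of which reached 10 in every library, stood at -1.84, -0.21 and 2.05, and ran from 1070 to 33789 in TG polysome, 838 to 17030 in WT polysome, 851 to 15861 in TG input and 572 to 10407 in WT input. No marker of any of these lists was at 0, and the part of tissue composition in the levels of the 33 genes was not tested.

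**Figure D5:**
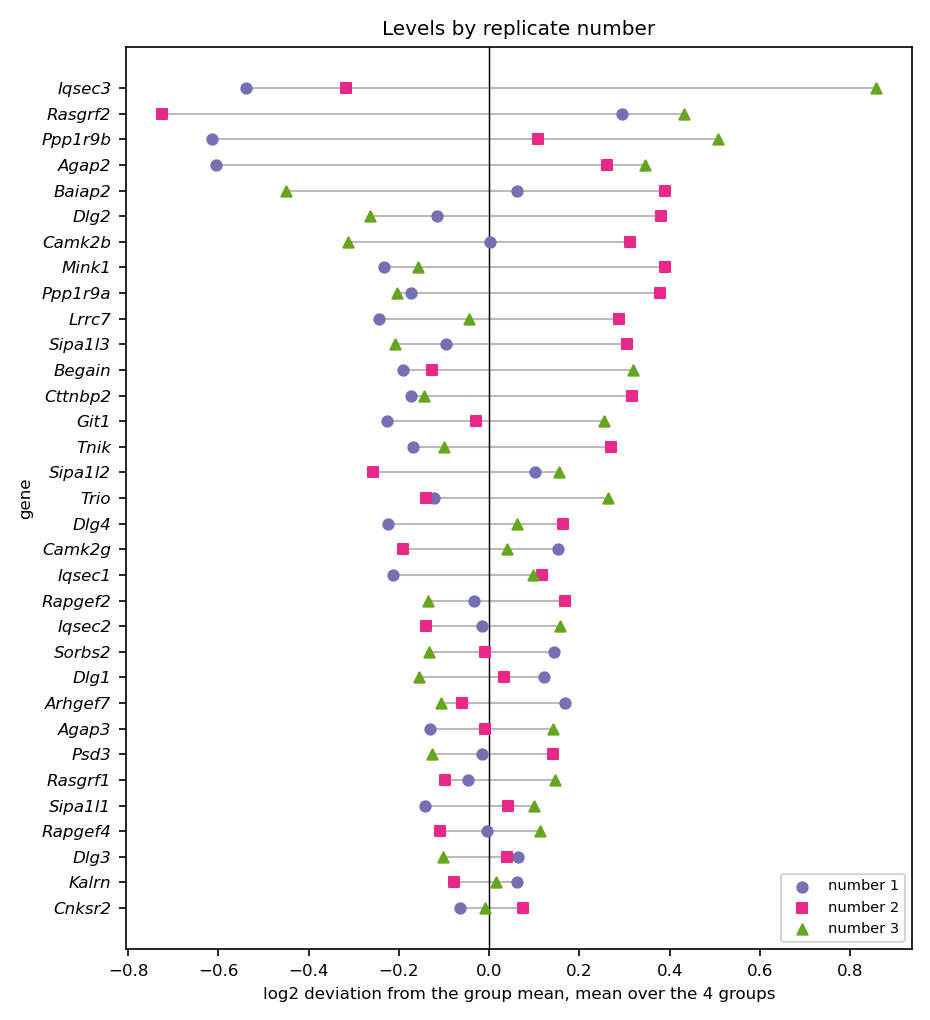
Deviation of replicate numbers 1, 2 and 3 from the group mean, averaged over the 4 groups (x axis, log2), for the 33 genes (y axis) ordered by the range between numbers. Iqsec3 has the widest range at 1.40, with number 3 high, and Kalrn and Cnksr2 the narrowest at 0.14.

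A list of 41 partners, paralogs and GTPases outside the 33 genes was set beside them, and 40 of these were tested. In TG, 10 fell and 1 rose in polysome relative to input (median -0.12), and in WT 4 fell and 2 rose (median -0.11), where 9.86% of all genes fell in TG and 8.59% in WT. Camk2a, the main alpha subunit of CaMKII, fell by 0.92 on the log2 scale in TG (SE 0.16, adjusted p = 0.00378) and by 0.79 in WT (SE 0.16, adjusted p = 0.00871). Scrib, a polarity scaffold with PDZ domains, fell by 0.80 in TG and 0.89 in WT, and so did Rapgef6, a Rap exchange factor (0.56 and 0.63), and Cttnbp2nl, the paralog of Cttnbp2 (0.65 and 0.59). The GTPase Rap2b rose by 1.12 in TG (SE 0.22, adjusted p = 0.0077) and by 1.17 in WT (SE 0.22), and Arf5 rose in WT (0.45) and did not pass in TG (0.36 ± 0.14, adjusted p = 0.0935, limma). Dlg5, Akap5, Cttn, Map4k4 and Lzts1 fell in TG and did not pass in WT, with no test of the difference passed. None of the 40 passed for genotype in either fraction or for the interaction.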

How the data were processed

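Per the submitters' processing notes, Salmon 1.1.0, R 3.6.2, DESeq2 1.26.0 and the build GRCm38 were used, and a stranded kit for total RNA was used per the labels' protocols. How transcripts were summarised to genes and how libraries were scaled is not stated. The deposited signal values are normalized estimated counts made by the authors, not whole numbers: only 32.5% to 45.8% of low values lay within 0.1 read of a whole number, so no count test was run. A read was worth 0.611 to 0.839 in polysome and 1.26 to 1.80 in input libraries, which gave the estimated depths.

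Symbols, coordinates and lengths came from GENCODE M21 (21465 of 21492 identifiers matched, all 33 genes among them). Principal transcripts are those marked by APPRIS. Log2(value + 1) was the response in limma 3.58.1 (R 4.3.3, eBayes with a trend), for genes with at least 3 fitted libraries at 10 or more. P-values were adjusted by Benjamini-Hochberg over all genes tested, with a threshold of 0.05. Genotype was fitted within 6 libraries of a fraction. A single model of all 12 libraries gave polysome against input, and its interaction with genotype. Level deviations and ratios were computed in Python 3.11.15. Simulated data with known changes served to test the model code.

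In the 18 same-numbered pairs of libraries, deviations from the group mean had correlations of 0.24 to 0.55, and each library correlated best with its own number in 36 of 36 comparisons, so the numbers pair the samples. What a number stands for (an animal, a day) is unknown. The replicate block was the number for genotype, and the number within genotype for polysome against input.

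The 33 genes, the other lists and the tests were chosen with earlier results of these data known. Every called gene is named in each comparison, and where none was called the 3 with the smallest p. Library values are given for the largest changes, for paralogs that moved differently, for the extremes of level per length and for the smallest p-values of genotype, and other genes were added after their values were seen. Alternatives were TMM factors (computed by the published algorithm) and scaling to nuclear protein-coding genes, different filters or pseudocounts, eBayes without the trend, fits of fewer libraries, the replicate block, each library left out in turn, removal of the trend on exonic length, and leaving out genes with more than 50% shared sequence. Removal of the trend on principal transcript length, each length trend together with the block, and the permutation of paralog ratios within pairs were chosen after seeing the data. A single result is not reported here.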

Additional observations from a re-analysis of the deposited data

How the results depend on the processing

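Counts of the 33 genes called in polysome against input depended on the pairing, on length and on single libraries. With the replicate block the count was 19 in TG and 18 in WT, against 11 and 10 without it, all lower. Of all genes, 16.6% in TG and 15.9% in WT fell with the block, against 9.86% and 8.59% without it. With the block and a number left out, the count was 11 without replicate 1, 8 without replicate 2 and 18 without replicate 3 in TG, where 10.7%, 5.40% and 13.3% of all genes fell. In WT it was 12, 2 and 15, where 9.88%, 1.86% and 12.3% fell. With the trend on exonic length removed the count was 7 in TG and 5 in WT, 1 of them higher in each. Of all genes, 7.24% then fell and 6.70% rose in TG, and 6.02% fell and 4.29% rose in WT. In settings chosen after seeing the data, the count was 14 in TG (9 lower, 5 higher) and 17 in WT (10 lower, 7 higher) with the block and exonic length removed. Of all genes, 13.9% then fell and 15.7% rose in TG, and 12.7% fell and 13.3% rose in WT. With the block and principal transcript length removed, it was 16 in TG (14 lower, 2 higher) and 17 in WT (13 lower, 4 higher). Of all genes, 13.8% then fell and 15.6% rose in TG, and 12.9% fell and 13.4% rose in WT. With each library left out in turn the count ran from 5 to 11 in TG and from 2 to 11 in WT, where 4.35% to 10.6% and 3.09% to 9.32% of all genes fell. For genotype and the interaction it was 0 in every setting run, the block included, so the block changed no other call of these genes by limma. The 5 calls of paralog ratios did not pass after adjustment when labels were swapped within pairs. Each was then at the smallest p that test allows, which is too high for 5 pairs alone to pass. Dlg4 was also called higher with exonic length alone. Higher calls of genes that lay below 0 without these corrections were made with the block and length combined: with exonic length Sorbs2 was at 0.54 in TG and 0.54 in WT, Ppp1r9a at 0.39 in TG and 0.36 in WT, and Sipa1l3 at 0.48 in WT, and with principal transcript length Ppp1r9a was at 0.40 in TG and 0.36 in WT. The cause was not tested. Filters, pseudocounts, TMM scaling, no variance trend and the genotype's own 6 libraries gave 9 to 11 in TG and 7 to 11 in WT. In these settings 6.59% to 12.3% of all genes fell in TG and 6.13% to 10.9% in WT. Among genes that did not pass, signs changed in at least 1 setting for 31 of 33 (genotype in polysome), 28 of 33 (genotype in input), 31 of 33 (interaction), 12 of 22 (TG fractions) and 11 of 23 (WT fractions). Depth limits low genes more in input than in polysome, and all 33 genes had at least 1008 normalized counts in every library.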
